A study of Mus musculus with 2 samples.

Results

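The genes described here encode 7 adhesion molecules of the T cell surface: Selplg, Spn, Cd44, Icam1, Icam2, Pecam1 and Cd47. They were taken by symbol from the deposited tables, and all 7 of 7 were found among 23167 symbols. Naive CD4 and naive CD8 T cells were purified by flow sorting from spleen and lymph nodes of Foxp3-GFP reporter mice on a C57/BL6 background, with no treatment in either group. Both populations were gated as high for CD62L, low for CD44 and negative for CD25 and for the Foxp3 reporter. Total RNA depleted of ribosomal RNA was sequenced as 1 library per cell type, and no source used here gives the age or number of the mice. With 1 library per group no difference has a replicate check and no p-value can be given, so every difference below compares 2 libraries.

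Naive T cells recirculate between blood and lymphoid tissue, and this traffic runs in steps of rolling, arrest and crossing of the vessel wall. PSGL-1 and CD43, the products of Selplg and Spn, are long mucin-like proteins that carry the sugars to which selectins bind, while CD44 binds the matrix polymer hyaluronan. ICAM-1 and ICAM-2 are immunoglobulin-type ligands of the integrin LFA-1, PECAM-1 binds itself on neighbouring cells and at endothelial junctions, and CD47 is the ligand of the inhibitory phagocyte receptor SIRP-alpha. High surface CD44 is the usual mark of mouse T cells that have met antigen.

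Values are RPKM, reads scaled to gene length and library size, so levels can be compared between genes. The library totals behind them were 24741945 reads for CD4 and 23853921 for CD8, recovered from the values themselves. The labels were checked against the coreceptor genes. Cd4 was at 305 RPKM in the CD4 library and 8.89 in the CD8 library. Cd8a was at 2.50 and 518 RPKM, and Cd8b1 at 21.4 and 788. The 7 general T cell markers lay between 98.3 and 694 RPKM. A gene was compared when it reached 1 RPKM in at least 1 library, which 10228 genes did. All 7 adhesion genes were above 1 RPKM in both libraries. The size of a difference is log2((CD4 RPKM + 1)/(CD8 RPKM + 1)), and an absolute value of 1 or more is called at least 2-fold. Folds are ratios of the RPKM without the added 1, with an exact 95% interval that covers counting error only. In bulk RNA, fewer cells that express a gene and less RNA of it per cell cannot be told apart.

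By this measure 1 of the 7 genes, Cd44, was at least 2-fold higher in CD4, and 1, Icam1, was at least 2-fold higher in CD8. Of all compared genes 2.41% lay at or past 2-fold toward CD4, 3.07% toward CD8, and 5.48% were past 2-fold in either direction. Cd44 lay just inside the threshold at a log2 difference of 1.02, and Pecam1 lay just outside it at 0.99. The other 4 genes were between -0.15 and 0.54. The median of the 7 was 0.28, beside a median of 0.08 over all compared genes, and 5 of the 7 were above 0, as were 59.5% of all compared genes. Counting intervals of the fold lay on 1 side of 1 for 6 of the 7 genes, 4 above it and 2 below, beside 69.4% of compared genes with an interval, 43.5% above and 25.9% below.

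**Figure D1:**
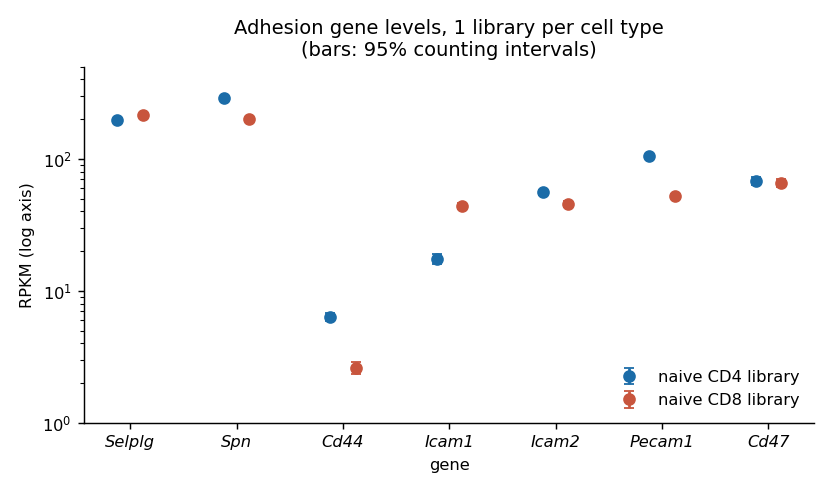
RPKM (log axis) of the 7 adhesion genes in the naive CD4 library (blue) and the naive CD8 library (red), 1 library each, with bars for 95% counting intervals. Icam1 and Cd44 stand furthest apart, at 17.5 against 44.0 and 6.33 against 2.60 RPKM, and the points of Cd47 lie side by side at 68.0 and 65.3 RPKM.

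**Figure D2:**
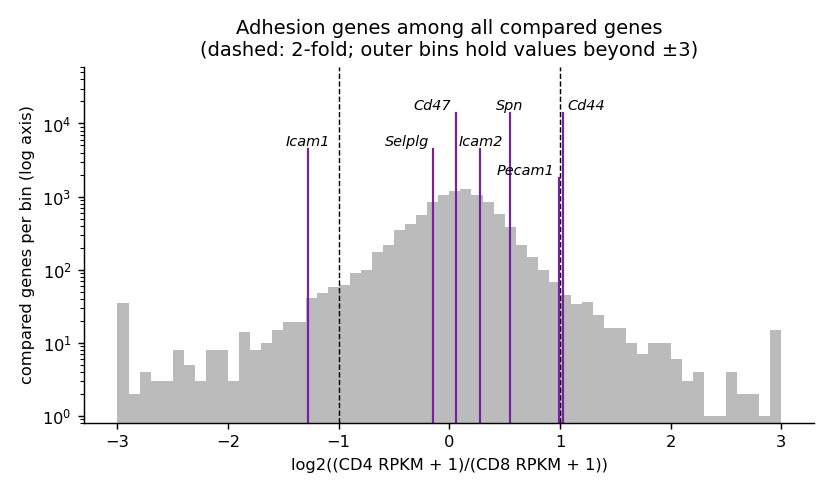
Histogram of the log2 difference (CD4 minus CD8, x axis) of all 10228 compared genes, with a log axis for genes per bin, and purple lines at the 7 adhesion genes. Icam1, at -1.28, is the 1 gene of the 7 beyond the left dashed line, while Cd44 and Pecam1 straddle the right one at 1.02 and 0.99.

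The upstream sequences of Icam1 and Cd44 are shown because these are the genes past 2-fold, in opposite directions. They are the 250 bases before the annotated start, from RefSeq on GRCm38.p6, a later build than the mm9 named for the reads, and nothing in these libraries reads out the promoters. Of the 7 genes 4 had a sequence (Icam1, Cd44, Spn and Cd47). Both strands were searched for 6 motifs: the NF-kappaB consensus by name, the NF-kappaB variant GGAAATTCC, the Sp1 box GGGCGG, the AP-1 site TGANTCA, the interferon-gamma activated site TTCNNNGAA and the E-box CACGTG. Capitals mark the matches, which do not overlap each other.
Icam1, chr9:21015690-21015939, plus strand: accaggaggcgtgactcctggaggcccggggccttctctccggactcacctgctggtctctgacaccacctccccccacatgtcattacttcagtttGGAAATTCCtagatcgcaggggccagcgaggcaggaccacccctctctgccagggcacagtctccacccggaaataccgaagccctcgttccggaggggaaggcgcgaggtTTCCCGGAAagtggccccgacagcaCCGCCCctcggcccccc
Cd44, chr2:102901666-102901915, minus strand: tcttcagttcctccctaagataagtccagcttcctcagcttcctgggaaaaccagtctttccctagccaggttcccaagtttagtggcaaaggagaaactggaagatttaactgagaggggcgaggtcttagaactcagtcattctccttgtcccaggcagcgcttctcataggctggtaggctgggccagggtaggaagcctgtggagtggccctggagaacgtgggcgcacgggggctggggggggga
With the base before the start as -1, the Icam1 window held GGAAATTCC from base -153, which 0.286% of all promoter windows of this length also hold. It held TTCNNNGAA from base -42, shared with 7.02% of windows, and GGGCGG on the reverse strand from base -17, shared with 32.7%. The Cd44 and Spn windows held 0 matches to the 6 motifs, and the Cd47 windows held GGGCGG 2 times each. A match describes the letters only.

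Of the mucin-like pair, Selplg had 196 RPKM in the CD4 library and 217 in the CD8 library, 1.11-fold toward CD8 (1.08 to 1.13). The log2 difference of Selplg was -0.15 as deposited, and the sign turned to 0.066 when each library was rescaled to the same RPKM sum. Selplg was thus near the same level in both libraries, with a direction that depended on the scaling.
Spn reached 291 RPKM in the CD4 library and 199 in the CD8 library, 1.46-fold higher in CD4 (1.43 to 1.49), and it stayed above 0 under all 6 alternative settings. These were the highest of the 7 genes in both libraries. Spn exceeded 98.3% of compared genes in CD4 and 97.5% in CD8, and Selplg exceeded 97.5% and 97.6%. Their order differed between the libraries. Spn was 1.49 times Selplg within CD4 (1.46 to 1.52), and Selplg was 1.09 times Spn within CD8 (1.06 to 1.11). Spn stands on 2 rows of each table with the same value and was counted once.

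Cd44, the hyaluronan receptor whose protein was gated as low in both populations, was the lowest of the 7 genes in both libraries. It had 6.33 RPKM in CD4 (counting interval 5.92 to 6.76) and 2.60 in CD8 (2.34 to 2.89), 2.43-fold higher in CD4 (2.14 to 2.76). It exceeded 27.9% of compared genes in CD4 and 13.7% in CD8, and the other 6 genes were above the median compared gene of each library (14.1 and 13.4 RPKM). The gate acted on the surface protein, so a low level is no separate finding. Its place past 2-fold depended on the setting, since the log2 difference was 0.57 with an added 5 RPKM in place of 1 and 0.94 after centring on the median gene. The values are per gene, so the standard and variant-exon forms of Cd44 cannot be told apart.

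Activation and memory genes were listed because CD44 is read together with them. Of 12 listed 9 were compared and 6 lay past 2-fold toward CD8, beside 3.07% of all compared genes. The median log2 difference of the 9 was -1.57, beside 0.08 over all compared genes. The list median was -1.003 with no filter on low values. The 6 were Il2rb, a chain of the IL-2 and IL-15 receptors (7.01 RPKM in CD4 against 44.1 in CD8), the chemokine receptor gene Cxcr3 (0.478 against 11.3), the T-box factor genes Eomes (1.83 against 12.6) and Tbx21 (0.222 against 2.63), the chemokine gene Ccl5 (0.765 against 20.4) and the transcriptional regulator gene Id2 (31.8 against 66.2). Cxcr3, Tbx21, Ccl5 and the granzyme gene Gzmb (0.115 against 1.19) passed the filter through the CD8 library only. The direction of these was fixed by the filter, so the count and median lend no support. Il2rb, Eomes and Id2 were above 1 RPKM in both libraries. Prdm1, which encodes Blimp-1 and was picked after its values were seen, lay on the CD4 side with 1.24 RPKM against 0.171, a ratio of 7.25 (4.59 to 12.05), and passed through the CD4 library only. The list had 0 genes past 2-fold toward CD4 as reported and 1 with a pseudocount of 0.1 RPKM or after rescaling. Cd69, an early activation antigen, had 42.6 RPKM in CD4 against 81.3 in CD8. The 10 genes of the naive state and homing had 0 members past 2-fold and a median of 0.31. Of these, Ccr7 was at 453 and 426 RPKM and S1pr1, the receptor for exit from lymphoid tissue, at 370 and 348.

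Icam1 had the largest absolute difference of the 7 genes as deposited, while after rescaling Cd44 (1.33) and Pecam1 (1.21) exceeded it (-1.09). Icam1 was at 17.5 RPKM in CD4 (16.1 to 19.1) and 44.0 in CD8 (41.6 to 46.4), 2.51-fold higher in CD8 (2.27 to 2.78). Of all compared genes 1.71% had a lower log2 difference. It remained at least 2-fold higher in CD8 under all 6 alternative settings.
Icam2 had 55.7 RPKM in CD4 against 45.6 in CD8, 1.22-fold higher in CD4 (1.13 to 1.32), with a log2 difference of 0.28. The 2 LFA-1 ligands therefore stood in different proportion. Within CD4 Icam2 was 3.18 times Icam1 (2.88 to 3.51), and within CD8 it was 1.04 times Icam1 (0.960 to 1.12), a ratio whose interval includes 1. The antisense gene Gm47079 overlaps Icam1 in GENCODE M21, and since the strand setting of the counts is not given, reads from it cannot be told from Icam1 reads. The small nuclear RNA gene Gm23731 overlaps Cd44 in the same way. The adjacent genes Icam4 and Icam5 were below 1 RPKM in both libraries, at 0.492 and 0.556 RPKM for Icam4 and 0.272 and 0.155 for Icam5.

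ICAM-1 is also found on B cells, myeloid cells and endothelium. Of the B cell markers, Cd79b, a B cell receptor chain gene, had 2.14 RPKM in CD4 against 28.8 in CD8, while Cd79a, Ms4a1 and Pax5 were below 1 RPKM in both. The 6 monocyte and macrophage markers summed to 3.54 and 3.10 RPKM, with Cd14 at 0 in both, and the 5 dendritic cell markers to 0.460 and 1.31. The 5 neutrophil markers summed to 3.13 and 4.91 RPKM. The 5 NK cell markers summed to 7.99 and 107, nearly all of it Klrd1 at 7.85 and 106 RPKM. Klrb1c, the NK1.1 gene, had at least 2 reads in the CD4 library and 85 in the CD8 library (0.031 against 1.36 RPKM). It was 44.1-fold higher in CD8 (11.8 to 370). Klrb1c passed the filter through the CD8 library only, so its direction was fixed by the filter. Ncr1 had at least 1 read in CD4 and 0 in CD8. Klre1 had 0 reads in CD4 and at least 1 in CD8, and Klra8 was at 0 in both. All 5 stromal and all 5 erythroid markers were below 1 RPKM in both. The part of these cells in the Icam1 difference was not tested.

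Pecam1 had 105 RPKM in CD4 (103 to 107) and 52.4 in CD8 (50.8 to 54.0), 2.01-fold higher in CD4 (1.93 to 2.08). The log2 difference of 0.99 fell short of the threshold by the added 1 RPKM alone and was 1.004 with an added 0.1. Of compared genes 97.5% had a lower difference, and 4 genes, Pecam1 among them, lay between it and the threshold. Pecam1 stood above Cd47 in CD4 and below it in CD8. Endothelium and platelets express Pecam1 and Icam2 strongly, and their markers were low here. All 7 endothelial markers were below 1 RPKM in both libraries and summed to 0.350 RPKM in CD4 and 0.439 in CD8. Tek, Tie1 and Emcn were at 0 in both, and Esam had at least 1 read in each. Cdh5 lay toward CD4, at 0.183 RPKM against 0.0527, 3.47-fold higher in CD4 (1.24 to 11.96). Kdr also lay toward CD4, with at least 6 reads in CD4 and 0 in CD8. Egfl7 lay toward CD8, with at least 2 reads in CD4 and 7 in CD8 and a fold interval that includes 1. Of 6 platelet and megakaryocyte markers 5 were below 1 RPKM in both, with Gp9, Gp1bb and Gp1ba at 0, and the list summed to 1.08 and 0.968 RPKM, mostly Itga2b at 1.04 and 0.824. The part of these cells in the Pecam1 and Icam2 values was not tested. Pecam1 and Icam2 lie on the same chromosome with Ern1 and Tex2 between them in the RefSeq gene order. The intervening genes were at 2.56 and 2.12 RPKM for Ern1 and 18.9 and 11.1 RPKM for Tex2 in CD4 and CD8.

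Cd47 had 68.0 RPKM in CD4 (63.4 to 72.9) and 65.3 in CD8 (60.7 to 70.2). Its fold of 1.04 toward CD4 had an interval of 0.941 to 1.15, which includes 1. That interval is computed at the fewest reads the values allow and would be narrower if the reads are a multiple. The sign is not settled either, at 0.057 on the log2 scale as deposited and -0.024 relative to the median gene.

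In order of level the CD4 library ran Spn, Selplg, Pecam1, Cd47, Icam2, Icam1 and Cd44, a 46.0-fold range. The CD8 library ran Selplg, Spn, Cd47, Pecam1, Icam2, Icam1 and Cd44, an 83.1-fold range. Each neighbouring pair was separated beyond counting error except Icam2 and Icam1 in CD8. Cd47 and Pecam1 thus traded places between the libraries, as Spn and Selplg did.

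Scaling matters for the small differences. Rescaling each library to an RPKM sum of 1000000 moved the median of all compared genes by 0.21 toward CD4. It also changed the balance of genes past 2-fold from 247 higher in CD4 and 314 in CD8 (44.0% toward CD4) to 517 and 285 (64.5%). Relative to the median gene the log2 differences were 0.94 for Cd44, 0.91 for Pecam1, 0.46 for Spn, 0.20 for Icam2, -0.024 for Cd47, -0.23 for Selplg and -1.36 for Icam1.

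**Figure D3:**
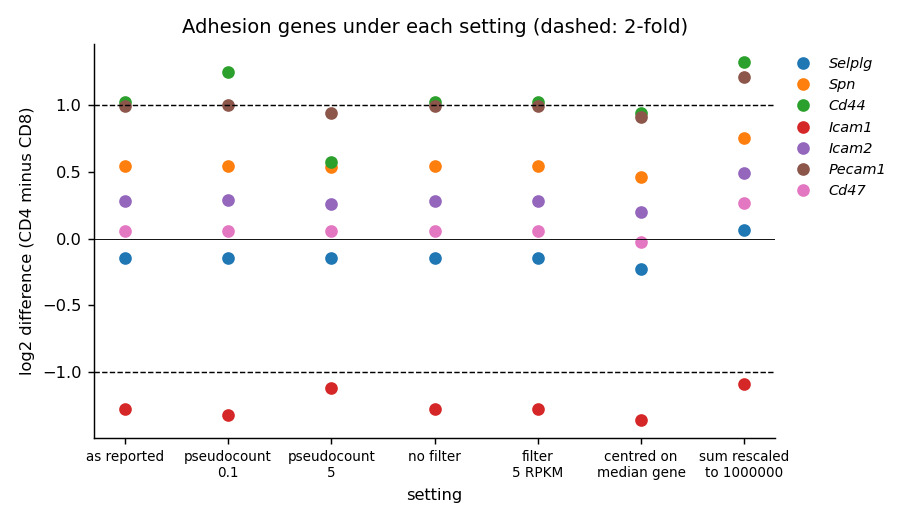
Log2 difference (CD4 minus CD8, y axis) of the 7 adhesion genes as reported and under 6 other settings on the x axis, with dashed lines at 2-fold. Icam1 stays below -1 throughout, Cd44 and Pecam1 cross the upper line, Selplg rises above 0 at 0.066 on rescaling, and Cd47 falls below it at -0.024 on centring.

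The molecules that act with these proteins were followed in fixed lists. Selectin binding needs sugars and sulphate added to PSGL-1, and of 16 genes for this 10 were compared, with 0 past 2-fold and a median of -0.16, which became 0.043 on rescaling. After centring on the median gene 1 of them, Tpst2, was past 2-fold toward CD8. Tpst2, which sulphates tyrosines, had 47.3 RPKM in CD4 against 92.6 in CD8, 1.96-fold higher in CD8 (1.86 to 2.06). Galnt1, which starts O-linked chains, was at 44.6 and 42.7 RPKM. Fut7 and Gcnt1, the fucosyl- and core-2 transferases of selectin ligands, picked after their values were seen, had at least 6 and 23 reads (Fut7) and 6 and 1 (Gcnt1) in CD4 and CD8. Both were below 1 RPKM in both libraries while Selplg itself was at 196 and 217.
Of 11 selectins and other sialomucins 3 were compared, 0 past 2-fold. Cd164 had 31.3 RPKM in CD4 against 46.2 in CD8, 6 of the 11 were at 0 in both libraries, and the list median was -0.13.

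CD44, CD43, PSGL-1 and ICAM-2 are tied to actin by ezrin, radixin and moesin. All 9 genes of this linker list were compared, 7 were above 0 and 2 below, 0 were past 2-fold, and the median was 0.16. By comparison, 59.5% of all compared genes were above 0, with a median of 0.08. The linker median was 0.077 relative to the median gene and 0.37 on rescaling. Ezrin (Ezr) was at 188 and 172 RPKM in CD4 and CD8 and Stk10, a kinase of these linkers, at 141 and 119. Of 9 genes for hyaluronan 3 were compared, with 0 past 2-fold and a median of 0.00. The highest were the hyaluronidase gene Hyal2, at 2.26 and 2.54 RPKM, and Hmmr, at 1.09 in both.

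LFA-1, the receptor for ICAM-1 and ICAM-2, pairs the chains of Itgal and Itgb2. Itgal had 70.1 RPKM in CD4 against 100.1 in CD8, 1.43-fold higher in CD8 (1.39 to 1.47). Itgb2 had 257 RPKM in CD4 against 199 in CD8, 1.29-fold higher in CD4 (1.26 to 1.32). The alpha chain thus lay on the side of Icam1 and the beta chain on that of Icam2. Of the 5 chains 4 were compared, 0 past 2-fold, with a median of -0.073 that became 0.14 on rescaling. Itgam (1.62 RPKM in CD4 against 0.559 in CD8) passed the filter through the CD4 library only. Itgax (0.263 against 1.07) passed through the CD8 library only, so the directions of both were fixed by the filter. With a pseudocount of 0.1 RPKM 1 chain was past 2-fold toward CD4 and 1 toward CD8, and on rescaling 1 was past it toward CD4. Of 13 integrin activation genes 11 were compared, 9 above 0 and 2 below, 0 past 2-fold, with a median of 0.21. This median was 0.13 relative to the median gene. The exchange factor gene Rasgrp2 was at 195 and 163 RPKM in CD4 and CD8, and Fermt3, the kindlin gene of blood cells, at 170 and 149.

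Of 23 other adhesion genes, mostly immunoglobulin-type, 12 were compared, with 3 past 2-fold toward CD4, 1 toward CD8 and a median of 0.32. The shares over all compared genes were 2.41% and 3.07%. The CD4 count of this list was 2 with a pseudocount of 5 RPKM and 2 after centring on the median gene. Pvr, which encodes the CD155 ligand of CD226, had 23.8 RPKM in CD4 against 5.88 in CD8, 4.05-fold higher in CD4 (3.47 to 4.75). Cd226 itself was at 30.8 in CD4 and 85.2 in CD8, 2.77-fold higher in CD8 (2.62 to 2.92). This ligand and its receptor thus lay on opposite sides. L1cam, a neural cell adhesion gene, was at 7.65 and 1.29 RPKM (5.92-fold higher in CD4, 5.01 to 7.04). Cd200 was at 6.42 and 2.65 RPKM, 2.42-fold higher in CD4 (1.998 to 2.95). The highest of this list were Cd2, at 389 and 326 RPKM, and Cd6, at 204 and 136.

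PECAM-1 carries inhibitory tyrosine motifs that recruit phosphatases, and the list of 5 genes for these motifs also held the kinase genes Lyn and Fes. The 3 compared were phosphatase genes, all above 0 and 0 past 2-fold, with a median of 0.16. That median was 0.075 relative to the median gene. Lyn (0.082 RPKM in CD4 against 0.438 in CD8) and Fes (0.192 against 0.474) were below the filter and lay toward CD8. Ptpn6, the SHP-1 phosphatase gene, had 199 RPKM in CD4 against 180 in CD8, and Inpp5d was at 51.2 and 43.6. Of 6 CD47 partners 2 were compared, with a median of 0.045. Qpctl, the enzyme that modifies the SIRP-alpha binding end of CD47, was at 4.38 and 4.37 RPKM, and Ubqln1 at 25.5 and 24.0. Of 11 sheddases and regulators 5 were compared, with a median of 0.18 that became -0.21 with a filter at 5 RPKM. Adam15 had 3.12 RPKM in CD4 against 0.579 in CD8, at least 2-fold higher in CD4, and passed the filter through the CD4 library only. With a pseudocount or a filter of 5 RPKM 0 of the list were past 2-fold toward CD4. Adam17 was at 27.5 and 24.1 RPKM and Adam10, which cleaves CD44, at 11.1 and 13.0.

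**Figure D4:**
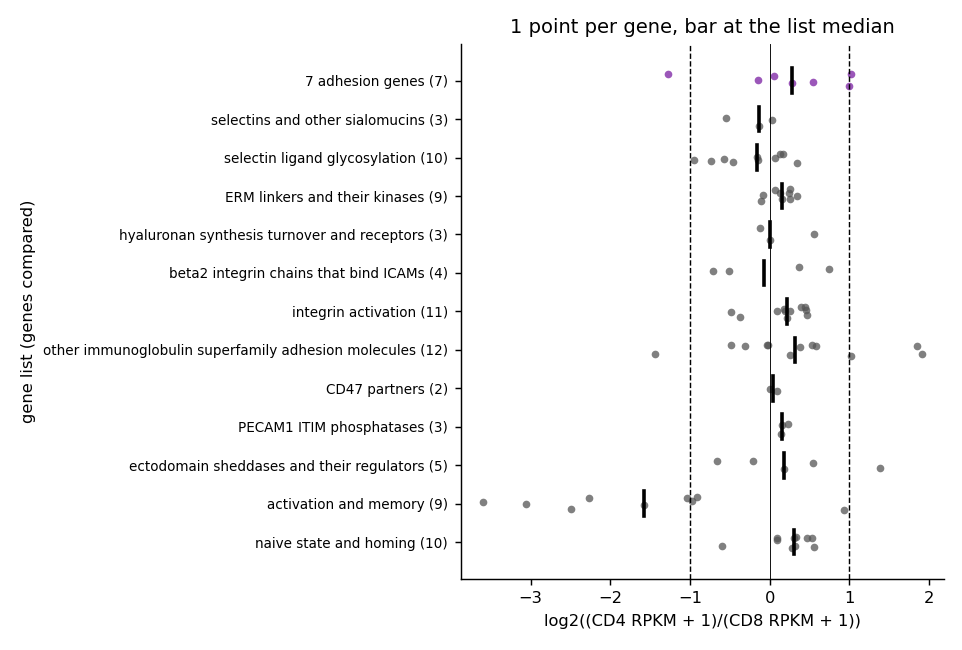
Log2 difference (CD4 minus CD8, x axis) of each compared gene, 1 point per gene, for the 7 adhesion genes (purple) and 12 lists (grey), with a bar at each median and dashed lines at 2-fold. The activation and memory genes, of which 4 passed the filter through the CD8 library only, have a median of -1.57, and the other medians lie between -0.16 and 0.32.

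The genes nearest to each adhesion gene were found by distance over log2(RPKM + 1) in the 2 libraries, which is a likeness of 2 values only. They were Cct2 and Eif3k for Selplg, Pkm and Acap1 for Spn, Cd200 and Card9 for Cd44, Tomm7 and Ms4a4c for Icam1, Fam3c and Ube2q1 for Icam2, H2-T24 and Mlec for Pecam1, and Kars and Cpsf3 for Cd47. Spn had the most distant neighbours, at 0.17 for both Pkm and Acap1, and Icam2 the closest, at 0.011 for Fam3c.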

How the data were processed

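RNA from 1 naive CD4 and 1 naive CD8 library was analysed, and the 7 genes and all lists were chosen with earlier results of these data known. The deposited values are RPKM made by the authors, 1 per gene symbol and row. The submitters' processing notes name TopHat, HTSeq and mm9, without versions, and give no annotation, strand setting or rule for multiply mapped reads. Each file has 26882 rows, and 2597 symbols stood on several rows with the same value each time and were counted once.

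Read numbers were worked back from the RPKM. The values of genes with few reads fix the relative size of the libraries, and requiring whole gene lengths fixes both totals, on a scale set by GENCODE M21 transcripts. Each gene was given its smallest possible length, hence its fewest possible reads, so intervals are not too narrow on this account. For Icam1 (at least 549 and 1328 reads) and Cd47 (at least 801 and 742) this length, 1266 and 476 bases, is well under the longest annotated transcript of 2535 and 5250 bases, and the reads are probably a multiple. Fold intervals are exact (Clopper-Pearson, 95%), level intervals exact Poisson. Genes reaching 1 RPKM in either library entered the comparison, with a pseudocount of 1 RPKM, which understates differences of low genes.

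The naming rule took all 7 genes, the 2 nearest genes of each, and from each list every gene past 2-fold and the 2 highest by mean RPKM. Some genes within this rule are not reported here. Alternatives were centring on the median gene, rescaling to a sum of 1000000, dropping the filter or raising it to 5 RPKM, and a pseudocount of 0.1 or 5 RPKM. Functions were tested on simulated libraries. Python 3.11.15, numpy 2.4.6, pandas 2.3.3, scipy 1.17.1 and matplotlib 3.10.9 were used.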

Additional observations from a re-analysis of the deposited data

How the results depend on the processing

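The count of adhesion genes at least 2-fold higher in CD4, 1 as reported, was 2 with a pseudocount of 0.1 RPKM and 2 after rescaling to a sum of 1000000 (Cd44 and Pecam1), and 0 with a pseudocount of 5 RPKM and 0 after centring on the median gene. The count higher in CD8 was 1, Icam1, under all 6 alternatives. The median of the 7 genes was 0.50 after rescaling and moved by less than the counting interval of its middle gene elsewhere. Over all compared genes the count higher in CD4, 247, was 428 and 73 with pseudocounts of 0.1 and 5 RPKM, 152 with a filter at 5 RPKM and 517 after rescaling. The count higher in CD8, 314, was 125 with a pseudocount of 5 RPKM and 208 with a filter at 5 RPKM. The sign turned on centring for Cd47 (-0.024), the hyaluronan list (-0.079) and the CD47 partners (-0.036). It turned on rescaling for Selplg (0.066), the glycosylation list (0.043) and the beta2 integrin chains (0.14). It also turned for the beta2 chains with a pseudocount of 5 RPKM (0.023) and for the sheddases with a filter at 5 RPKM (-0.21). The cause of these turns was not tested. No paired analysis was possible because each group has 1 library, and for the same reason no replicate could be left out.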
